A study of Homo sapiens with 20 samples.

Results

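EZH1, EZH2, SUZ12, EED, DNMT1, DNMT3A, DNMT3B, UHRF1, HELLS and TET1 encode enzymes and core partner proteins of Polycomb repressive complex 2 (PRC2) and of the DNA methylation machinery. These 10 genes were picked by their GENCODE gene names, out of 57536 annotated genes to which deposited transcripts could be assigned, and the estimated counts of all transcripts of a gene were summed. All 10 were among the 27697 genes tested, so no member was lost to a filter on low values. They were measured in the NGP nutlin data, in which NGP, an established human neuroblastoma cell line, was cultured in 6-well flasks and given either ethanol as vehicle (10 samples) or nutlin-3 as an 8 µM racemic mixture (10 samples). Nutlin-3 is a small molecule that keeps MDM2 from binding p53, and the labels do not state how long the treatment lasted. Polyadenylated RNA from 100 ng of total RNA was sequenced from stranded libraries. All samples came from this 1 line. The study describes the samples of a condition as biological replicates without saying how the cultures were set apart, so p-values measure the spread between these samples only.

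PRC2 places methyl groups on lysine 27 of histone H3, a mark of silenced developmental genes. EZH2 and EZH1 are its alternative catalytic subunits, EZH2 typical of dividing cells and EZH1 of resting ones, and SUZ12 and EED are core subunits that the catalytic subunit needs for activity. CpG methylation is copied to the new strand after replication by DNMT1, which UHRF1 brings to hemimethylated sites, and HELLS, a remodelling ATPase, opens chromatin for this step. DNMT3A and DNMT3B set new methylation, and TET1 oxidises methylated cytosine, the first step of its removal.

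The promoters of the 4 members that held the E2F letters searched, and that of EZH1, are printed first. The reason is that the replication genes set beside the members below are known to be driven by E2F factors. Whether these letters bear on the change of any member was not tested. The RefSeq windows used here cover 20 start sites of the 10 members, and each runs from 250 bases before to 50 after a start on GRCh38. The letters searched on both strands were TTTCGCGC, TTTGGCGC and TTCCCGCC for E2F, TTTGAA for the cell-cycle homology region (CHR) of mitotic promoters, and CCAAT. Capitals mark the E2F and CHR letters, as they read on the gene's strand, and no marked match overlapped another.
EZH2 (chr7:148884242-148884541, minus strand): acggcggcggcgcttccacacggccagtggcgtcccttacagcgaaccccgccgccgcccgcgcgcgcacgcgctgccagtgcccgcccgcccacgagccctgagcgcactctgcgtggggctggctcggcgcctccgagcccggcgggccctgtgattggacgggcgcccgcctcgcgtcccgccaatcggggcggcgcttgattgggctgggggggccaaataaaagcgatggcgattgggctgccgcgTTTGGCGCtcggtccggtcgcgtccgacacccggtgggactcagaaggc
DNMT1 (chr19:10194904-10195203, minus strand): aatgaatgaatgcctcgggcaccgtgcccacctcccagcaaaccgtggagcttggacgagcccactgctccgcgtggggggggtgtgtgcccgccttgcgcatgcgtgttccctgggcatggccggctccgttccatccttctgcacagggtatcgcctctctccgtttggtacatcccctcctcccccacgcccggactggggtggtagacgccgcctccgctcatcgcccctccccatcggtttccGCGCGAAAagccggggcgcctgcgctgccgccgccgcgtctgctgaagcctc
UHRF1, start 1 (chr19:4909251-4909550, plus strand): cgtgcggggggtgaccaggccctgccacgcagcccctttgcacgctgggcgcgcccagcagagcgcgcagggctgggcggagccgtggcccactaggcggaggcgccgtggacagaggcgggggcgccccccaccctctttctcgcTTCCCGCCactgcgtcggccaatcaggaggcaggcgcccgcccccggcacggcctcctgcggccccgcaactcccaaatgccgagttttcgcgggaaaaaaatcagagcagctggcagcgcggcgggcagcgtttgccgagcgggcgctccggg
UHRF1, start 2 (chr19:4909894-4910193, plus strand): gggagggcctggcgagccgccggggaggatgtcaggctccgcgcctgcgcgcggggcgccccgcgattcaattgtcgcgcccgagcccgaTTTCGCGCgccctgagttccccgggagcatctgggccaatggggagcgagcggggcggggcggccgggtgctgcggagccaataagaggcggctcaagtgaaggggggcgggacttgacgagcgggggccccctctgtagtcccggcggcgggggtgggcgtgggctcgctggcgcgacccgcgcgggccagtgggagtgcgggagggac
HELLS (chr10:94545538-94545837, plus strand): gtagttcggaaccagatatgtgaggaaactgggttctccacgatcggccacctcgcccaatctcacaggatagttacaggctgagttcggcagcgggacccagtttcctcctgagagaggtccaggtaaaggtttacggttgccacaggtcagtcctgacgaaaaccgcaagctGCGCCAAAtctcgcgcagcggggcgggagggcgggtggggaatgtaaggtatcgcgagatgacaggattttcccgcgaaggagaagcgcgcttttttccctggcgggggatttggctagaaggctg
EZH1 (chr17:42744991-42745290, minus strand): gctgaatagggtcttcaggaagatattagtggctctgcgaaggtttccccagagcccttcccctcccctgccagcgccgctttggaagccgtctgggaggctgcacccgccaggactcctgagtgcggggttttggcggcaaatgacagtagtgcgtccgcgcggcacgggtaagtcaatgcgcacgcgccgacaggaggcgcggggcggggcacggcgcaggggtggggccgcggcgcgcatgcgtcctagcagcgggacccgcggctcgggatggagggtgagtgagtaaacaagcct

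E2F letters stood in at least 1 window of 4 of the 10 members, beside 1395 of all 27305 genes with a window (5.11%) and 17 of 26 DNA replication genes. They lay within 2 bases of the start in EZH2 and DNMT1, and farther upstream in UHRF1 and HELLS. The EZH1 window held neither E2F, CHR nor CCAAT letters. CHR letters were found in 2 members, SUZ12 and DNMT3A, beside 18.2% of all genes and 12 of 17 mitotic genes. CCAAT was present in 7 members and in 39.7% of all genes. These shares count genes, and members had more windows per gene (20 for 10 members, 35116 for 27305 genes), hence more chances of a match. Counted by window, E2F letters stood in 5 of the 20 member windows, beside 4.24% of all windows. CHR letters stood in 2 of the 20, beside 15.2%, and CCAAT in 9 of the 20, beside 34.6%. These matches describe the letters only, and other spellings of an E2F site were not searched. The related letters TTTCCCGC, for example, stand uncounted on either strand in the windows of UHRF1 start 1, HELLS and SUZ12. Which members held E2F letters, and where, thus depends on the letters chosen. SUZ12, EED, DNMT3A, DNMT3B and TET1 held none of the E2F letters searched in any listed window, which says nothing on binding of a factor there.

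After nutlin, 9 of the 10 members fell and 1, EZH1, rose at 5% FDR in the edgeR quasi-likelihood (QL) test, with p-values adjusted by Benjamini-Hochberg over all genes. Significantly differentially expressed (SDE) genes made up much of the whole table as well. Of the 27697 genes, 26.5% were lower and 32.3% higher, and among the 15168 genes with a mean TMM-scaled CPM (counts scaled to the library size) of at least 1, as all members had, 45.3% were lower. EZH2, SUZ12, DNMT1, DNMT3B, UHRF1 and HELLS, 6 of the 10, were lower by more than 2-fold in the glmTreat test at 5% FDR, against 3.73% of all genes and 6.27% of those with at least 1 CPM. None was higher by more than 2-fold by glmTreat, and 0 at an unadjusted p under 0.05, where 8.18% of all genes and 7.54% of those with at least 1 CPM were called by glmTreat. In TMM-scaled CPM, every nutlin sample lay below every vehicle sample for 8 members (16.6% of all genes, 30.2% of those with at least 1 CPM) and above for EZH1 (12.2% and 18.9%). The median log2 fold change (LFC, nutlin minus vehicle) of the members was -1.19, beside 0.19 over all genes tested and -0.08 over genes with at least 1 CPM. With library size alone in place of TMM scaling the median of all genes moved to 0.37 and the calls over all genes from 7340 lower and 8935 higher to 5514 lower and 11560 higher. The 9 members that fell and EZH1 kept their calls and directions in all 32 alternatives run for each.

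**Figure D1:**
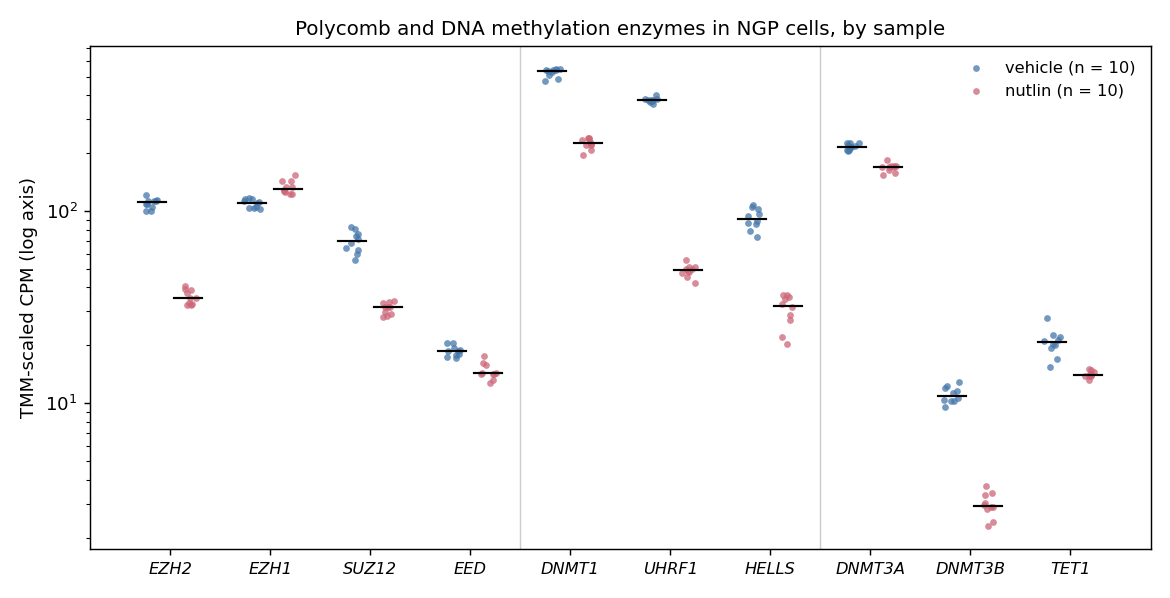
TMM-scaled CPM of each member (log axis) in 10 vehicle and 10 nutlin samples, with 1 point per sample and a bar at the median of each group. EED is the only member whose groups overlap (vehicle from 17.3, nutlin up to 17.7), and EZH1 is the only one with the nutlin samples on top.

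EZH2, the catalytic subunit of PRC2 in dividing cells (ENSG00000106462, chr7:148807257-148884321), had a lowest, median and highest level of 99.7, 111 and 121 TMM-scaled CPM in the vehicle samples and 32.3, 35.4 and 40.9 in the nutlin samples. The groups were far apart, with the highest nutlin sample below every vehicle sample. The LFC was -1.61 (SE 0.046, adjusted p 6.9e-23, edgeR QL), a level 3.06-fold lower. EZH1, its paralogue (ENSG00000108799, chr17:42700275-42745049), ran from 102 over 110.4 to 117 CPM in vehicle and from 122 over 131 to 154 in nutlin. All 10 nutlin samples lay above the vehicle range in CPM, whereas in TPM the groups overlapped (vehicle up to 51.5, nutlin from 45.9). The rise was small, with an LFC of 0.28 (SE 0.042, adjusted p 9.0e-07, edgeR QL), 1.21-fold. It stood 0.09 above the median LFC of all genes in the same fit, and between 0.07 and 0.32 above it over all alternatives.

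On the per-length scale of TPM, in which counts are divided by effective length, the catalytic pair changed places. EZH2 and EZH1 had similar mean levels in vehicle, 49.8 ± 3.69 and 45.2 ± 4.11 TPM (SD, n = 10 each), and EZH2 was the higher in 8 of 10 samples. In nutlin, EZH2 was at 15.7 ± 1.57 and EZH1 at 54.0 ± 4.87 TPM (SD, n = 10 each). EZH1 thus made up 44.6% to 52.0% of the summed EZH1 and EZH2 TPM in the vehicle samples and 74.3% to 80.6% in the nutlin samples, with no overlap. The sum itself fell from 95 ± 6.16 to 69.7 ± 5.39 TPM (SD, n = 10 each).

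SUZ12, the subunit that holds the PRC2 core together (ENSG00000178691, chr17:31937007-32001038), ranged from 55.5 to 82.4 CPM in vehicle with a median of 69.7, and from 28.2 to 34.2 with a median of 31.6 in nutlin. The vehicle samples were more scattered than the nutlin samples, and the groups did not meet. Its LFC was -1.16 (SE 0.061, adjusted p 2.2e-16, edgeR QL), 2.23-fold lower, which passed the test against 2-fold narrowly (adjusted p 0.017, glmTreat). That call was lost when 1 library was left out, either vehicle replicate 12 (adjusted p 0.068, glmTreat) or nutlin replicate 9 (adjusted p 0.051, glmTreat), and at 1% FDR. It was also lost with DESeq2 size factors (adjusted p 0.084, glmTreat), filterByExpr (0.22), the effective length offset (0.056), protein_coding transcripts only (0.79) and library size alone (1). Part of SUZ12 has a near copy in the transcribed pseudogene SUZ12P1 (chr17:30731886-30776402), so reads may be split between them. SUZ12P1 held 146 to 216 estimated counts in the vehicle samples and 105 to 177 in the nutlin samples, and with its counts added the LFC of SUZ12 was -1.001 and did not pass the test against 2-fold (adjusted p 0.90, glmTreat).

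EED, the subunit that reads the histone mark already in place (ENSG00000074266, chr11:86201212-86278813), had a lowest, median and highest level of 17.3, 18.7 and 20.6 CPM in vehicle and 12.7, 14.3 and 17.7 in nutlin. The highest nutlin sample reached into the vehicle range. EED was 1.28-fold lower, with an LFC of -0.35 (SE 0.056, adjusted p 2.6e-06, edgeR QL), and with library size alone the LFC was -0.16 (adjusted p 0.014). The ratio of SUZ12 to EED in TPM was 1.13 to 1.71 in vehicle and 0.745 to 0.995 in nutlin, so SUZ12 stood above EED in every vehicle sample and below it in every nutlin sample. Reads given to SUZ12P1 are not in this ratio. In the nutlin samples SUZ12P1 held 105 to 177 estimated counts, beside 429 to 554 of SUZ12. Whether SUZ12 stays below EED in nutlin with those reads added was not tested.

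**Figure D2:**
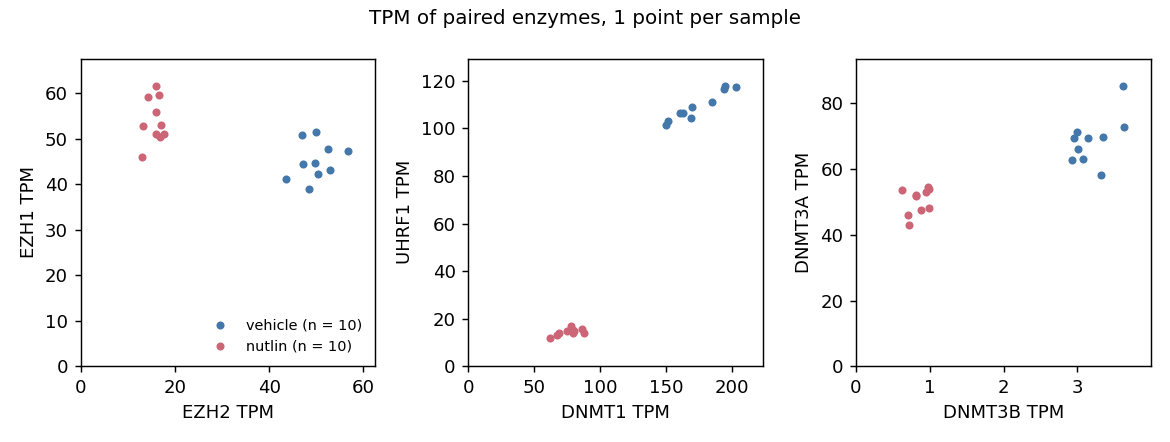
TPM of EZH1 against EZH2, UHRF1 against DNMT1 and DNMT3A against DNMT3B, with 1 point per sample (10 vehicle, 10 nutlin) and all axes from 0. Nutlin samples move left along the EZH2 axis with EZH1 slightly higher, down in both UHRF1 and DNMT1, and mainly left along the DNMT3B axis.

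DNMT1, the maintenance methyltransferase (ENSG00000130816, chr19:10133342-10231286), was the most abundant member per length in both conditions. Its CPM ran from 473 over 537 to 549 in vehicle and from 196 over 225 to 239 in nutlin, with a wide gap between the groups. The LFC was -1.23 (SE 0.038, adjusted p 5.7e-22, edgeR QL), 2.34-fold lower. The call against 2-fold was lost with library size alone (adjusted p 0.32, glmTreat) and with protein_coding transcripts only (adjusted p 0.21, glmTreat).

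UHRF1, which reads hemimethylated CpG and recruits DNMT1 (ENSG00000276043, chr19:4903080-4962154), showed the largest change of the 10 members. It was at 360.4, 379 and 399 CPM (lowest, median, highest) in vehicle and at 42.4, 49.5 and 55.3 in nutlin. No nutlin sample came near the vehicle range. The LFC was -2.95 (SE 0.038, adjusted p 8.9e-31, edgeR QL), a 7.70-fold lower level. UHRF1 fell more than its partner, and the TPM of UHRF1 relative to DNMT1 went from 0.631 ± 0.0358 to 0.190 ± 0.0158 (SD, n = 10 each).

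HELLS, the remodeller of the maintenance step (ENSG00000119969, chr10:94545329-94613905), varied most of the 10 among the nutlin samples, with a coefficient of variation of 18.2% in TPM. Its CPM ran from 73.6 over 91.2 to 107 in vehicle and from 20.2 over 32.1 to 36.7 in nutlin, with every nutlin sample below the vehicle range. The LFC was -1.58 (SE 0.089, adjusted p 1.0e-15, edgeR QL), 2.99-fold lower. With an offset for the mean effective length of the gene it was -1.28.

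DNMT3A and DNMT3B, which both set new methylation, changed by different amounts. DNMT3A (ENSG00000119772, chr2:25227855-25342590) had a range of 204 to 227 CPM around a median of 216 in vehicle and of 155 to 183 around 169 in nutlin. The groups did not overlap, yet the fall was small, with an LFC of -0.36 (SE 0.032, adjusted p 4.3e-11, edgeR QL), or 1.29-fold. DNMT3B (ENSG00000088305, chr20:32762385-32809359) was a minor transcript, at 9.53 to 12.9 CPM (median 10.9) in vehicle and 2.30 to 3.72 (median 2.92) in nutlin. It rested on 35 to 196 estimated counts per sample, and its groups were well apart. The LFC of -1.90 (SE 0.083, adjusted p 2.0e-18, edgeR QL) amounted to a 3.74-fold lower level. Per length, DNMT3A exceeded DNMT3B 17.5-fold to 23.8-fold in the vehicle samples and 48.7-fold to 86.0-fold in the nutlin samples.

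TET1, the demethylation enzyme (ENSG00000138336, chr10:68560337-68694487), had levels of 15.4, 20.7 and 27.6 CPM (lowest, median, highest) in vehicle and 13.3, 14.1 and 15.1 in nutlin. The ranges in CPM came close without meeting, and in TPM they overlapped (vehicle from 1.56, nutlin up to 1.74). TET1 was 1.46-fold lower, with an LFC of -0.55 (SE 0.070, adjusted p 6.3e-08, edgeR QL). Spread was wide in vehicle, with a coefficient of variation of 20.2% in TPM against 7.01% in nutlin. Of EZH1, EED, DNMT3A and TET1, none passed the test against 2-fold (adjusted p 1 for each, glmTreat).

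The order of the members by mean TPM in vehicle was DNMT1 (174), UHRF1 (109), DNMT3A (68.8), EZH2 (49.8), EZH1 (45.2), HELLS (28.0), SUZ12 (17.6), EED (11.7), DNMT3B (3.20) and TET1 (2.38). Neighbours in this order had overlapping ranges for EZH2 and EZH1, HELLS and SUZ12, and DNMT3B and TET1. In nutlin the order was DNMT1 (76.4), EZH1 (54.0), DNMT3A (50.4), EZH2 (15.7), UHRF1 (14.4), HELLS (11.3), EED (9.14), SUZ12 (7.92), TET1 (1.599) and DNMT3B (0.846). Here EZH1 and DNMT3A overlapped, as did each pair of neighbours from EZH2 down to SUZ12. EZH1 moved up to rank 2 from rank 5, and UHRF1 moved the other way. The summed TPM of the 10 members was 449 to 571 in the vehicle samples and 213 to 260.5 in the nutlin samples.

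Transcripts of the members were then tested one by one. The files hold 116 of them, 57 passed the filter on low counts, 29 of these were lower (50.9%, beside 22.9% of all 51203 transcripts tested) and 7 higher (12.3%, beside 25.9%) in the edgeR QL test at 5% FDR. EZH1 had 4 of its 5 tested transcripts higher. None of the 4 tested EED transcripts passed by edgeR QL, and 0 had an unadjusted p under 0.05 or passed with limma voom. In the test of transcript use, which asks whether a transcript changed relative to the rest of its gene, 56 transcripts of 9 members could be tested, and TET1 has 1 transcript only. With diffSpliceDGE at 5% FDR, 3 were used less (background 2.63% of 45742) and 6 more (background 5.96%). On simulated counts diffSpliceDGE called too many transcripts, so a test of log2 ratios with limma was added after the data were seen. All 9 passed it too, in the same direction, that is 5.36% used less and 10.7% used more, where 2.31% and 5.32% of all transcripts passed both. They belong to EZH2, DNMT1, DNMT3A, UHRF1 and HELLS. kallisto divides reads between overlapping transcripts, and the error of that division is not in these tests.

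The DNMT3A transcripts concerned were DNMT3A-203, which starts inside the gene and encodes 723 residues, and DNMT3A-201, which starts 90.28 kb upstream and encodes 912. DNMT3A-203 took 37.1% to 45.5% of the gene's estimated counts in vehicle and 23.7% to 30.9% in nutlin. DNMT3A-201 took 34.7% to 41.5% in vehicle and 49.4% to 53.1% in nutlin. Shares did not overlap between groups for either transcript. The level of DNMT3A-203 fell (LFC -0.89, SE 0.050), whereas DNMT3A-201 was slightly higher (LFC 0.14, SE 0.043, adjusted p 0.011, edgeR QL). Per length, the shorter form stayed the more abundant, at 27.5 and then 13.9 TPM against 9.29 and then 9.52 TPM of the longer. Besides their starts, the 2 models differ in the last exon, of 1445 bases in DNMT3A-203 and 6566 in DNMT3A-201, and whether the difference came from reads at the start or at the end was not tested.

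UHRF1 showed the widest shifts. UHRF1-207 held 83.5% to 91.1% of the counts in vehicle and 52.7% to 68.6% in nutlin, and its level fell from a median of 331 to 31.1 CPM (LFC -3.38, SE 0.048). UHRF1-206, which starts 869 bases downstream with a first exon of 672 bases and encodes 806 residues in place of 793, went from 0.594% to 1.598% of the counts in vehicle to between 10.8% and 18.8% in nutlin. Its level was higher, with medians of 4.28 and 6.97 CPM (LFC 0.79, SE 0.16, adjusted p 2.2e-04, edgeR QL). UHRF1-201, which starts 6.42 kb upstream and shares 15 of 17 exons with UHRF1-207, took 0.472% to 2.95% and then 7.12% to 22.3%, with a level that did not pass the test (LFC 0.43, SE 0.27, adjusted p 0.21, edgeR QL). The shares of both minor transcripts in nutlin lay above the vehicle range, while their levels in CPM overlapped between the groups.

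The starts of 3 of these transcripts are printed below as GRCh38 sequence on the gene's strand, from 250 bases before the start to 50 after, with the first transcribed base in capitals, because the shares of these transcripts differed between the groups. The DNMT3A pair, and UHRF1-206 against UHRF1-207, differ at the last exon as well, and which start was used was not tested. That of UHRF1-207 lies 3 bases from start 1 of UHRF1 above, which holds E2F letters, while none of the 3 windows here holds E2F or CHR letters.
DNMT3A-203 (chr2:25252262-25252561, minus strand): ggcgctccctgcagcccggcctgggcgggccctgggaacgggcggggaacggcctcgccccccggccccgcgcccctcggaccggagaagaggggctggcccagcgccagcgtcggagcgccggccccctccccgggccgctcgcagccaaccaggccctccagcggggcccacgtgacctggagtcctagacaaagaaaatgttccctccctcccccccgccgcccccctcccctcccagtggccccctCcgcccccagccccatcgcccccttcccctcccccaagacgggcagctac
DNMT3A-201 (chr2:25342541-25342840, minus strand): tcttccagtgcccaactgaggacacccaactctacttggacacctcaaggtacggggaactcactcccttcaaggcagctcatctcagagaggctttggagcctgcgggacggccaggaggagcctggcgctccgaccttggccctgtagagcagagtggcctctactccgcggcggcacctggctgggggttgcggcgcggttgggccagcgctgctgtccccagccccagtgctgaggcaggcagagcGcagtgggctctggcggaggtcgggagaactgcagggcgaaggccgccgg
UHRF1-206 (chr19:4910117-4910416, plus strand): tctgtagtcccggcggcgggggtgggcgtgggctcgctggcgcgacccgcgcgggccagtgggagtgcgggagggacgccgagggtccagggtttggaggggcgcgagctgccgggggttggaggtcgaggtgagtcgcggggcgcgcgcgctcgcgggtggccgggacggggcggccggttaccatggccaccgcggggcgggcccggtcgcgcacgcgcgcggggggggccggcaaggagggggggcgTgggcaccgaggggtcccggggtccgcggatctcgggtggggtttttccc

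**Figure D3:**
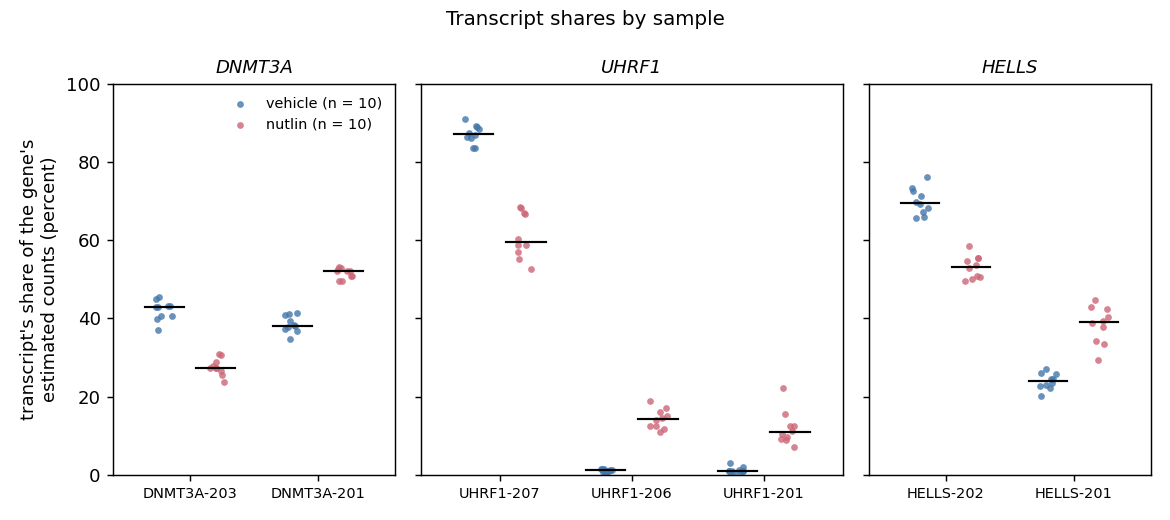
Share of a gene's estimated counts (percent) taken by the main transcripts of DNMT3A, UHRF1 and HELLS in 10 vehicle and 10 nutlin samples, with 1 point per sample and a bar at the median. Each of the 7 transcripts separates the groups, and the largest drop is that of UHRF1-207 from 87.1% to 59.6% (medians).

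**Figure D4:**
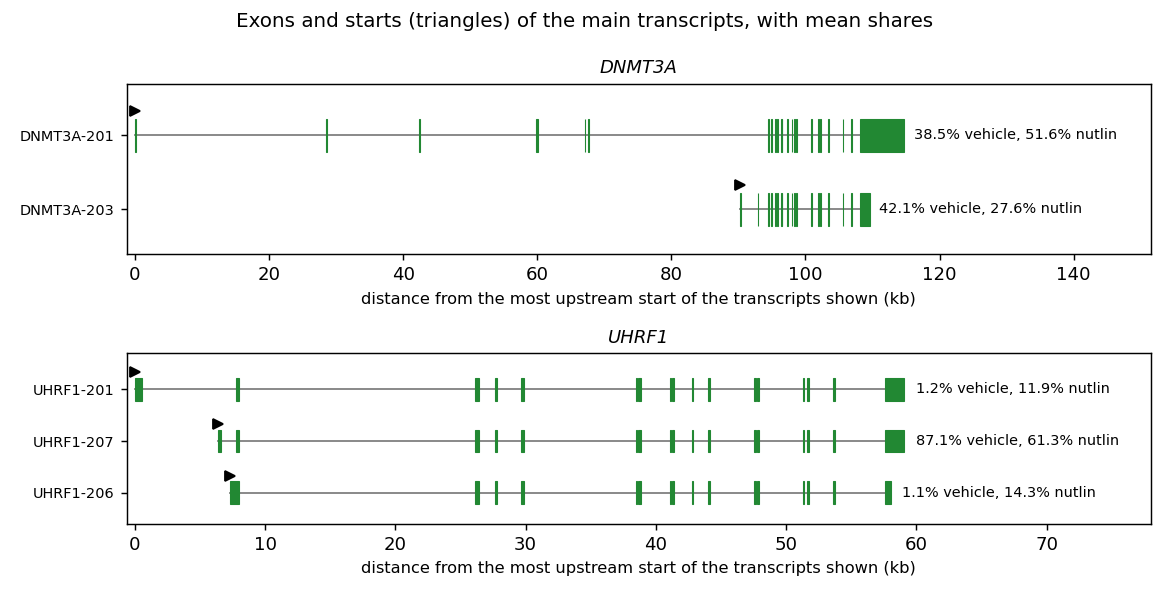
Exons (boxes) and starts (triangles) of 2 DNMT3A and 3 UHRF1 transcripts in GENCODE, plotted as distance in kb from the most upstream start of those shown, with mean shares of the gene's estimated counts at the right. DNMT3A-201 begins 90.28 kb before DNMT3A-203 and ends with a longer exon, and the UHRF1 transcripts differ at their first exons and UHRF1-206 also at its last.

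In HELLS, the share of HELLS-202 dropped from between 65.5% and 76.1% in vehicle to between 49.6% and 58.6% in nutlin, and that of HELLS-201 went up from between 20.1% and 27% to between 29.4% and 44.6%. HELLS-201 is the canonical form with 838 residues, whereas HELLS-202 is a model whose coding sequence lacks its beginning and which ends in an exon of 4053 bases. Both fell in level, with LFCs of -0.82 (SE 0.15) and -1.90 (SE 0.094). For EZH2, the minor transcript EZH2-205, with its own first exon 0.74 kb downstream of that of EZH2-203, was at 0 to 2.11 CPM in vehicle and 1.76 to 3.84 in nutlin (LFC 1.74, SE 0.63, adjusted p 0.027, edgeR QL), that is 0% to 1.89% and then 4.72% to 10.7% of the counts of EZH2. The remaining call was DNMT1-215, a short form of 119 residues whose shares, with medians of 0.213% and 0.607%, overlapped between groups.

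The other listed subunits of PRC2 mostly fell as well. Of 11 on the list, 10 were tested, 8 were lower, AEBP2 was higher (LFC 0.41) and LCOR did not pass (LFC 0.09), with a median LFC of -0.66. All 10 had a mean of at least 1 CPM, where 45.3% of genes were lower and 34.8% higher. PHF19, a Polycomb-like subunit that binds CpG-rich DNA, fell by 2.52 on the log2 scale (SE 0.063), from a median of 78.6 to 13.7 CPM. RBBP7, a histone-binding subunit, had an LFC of -1.59 (SE 0.038), and these were the 2 that passed the test against 2-fold. RBBP4, the paralogue of RBBP7 and the most abundant of the list in TPM, had an LFC of -0.69 (SE 0.027), and LCORL one of -0.88 (SE 0.078).

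PRC1, which ubiquitinates histone H2A, was more mixed. Of its 25 listed subunits 18 were lower, 4 (among them PCGF1, PCGF3 and PHC3) were higher and 3 (CBX7, RYBP and BCORL1) were not SDE. The median LFC was -0.43, and with library size alone 13 were lower and 5 higher. All 25 had a mean of at least 1 CPM, where 45.3% of genes were lower and 34.8% higher. CBX2, a reader of the PRC2 mark, had an LFC of -1.28 (SE 0.033). PCGF6, of a variant PRC1, had an LFC of -1.03 (SE 0.059). The list was led in TPM by KDM2B, which recruits a variant PRC1 to CpG islands (LFC -0.89, SE 0.028), and its partner PCGF1 (LFC 0.23, SE 0.054). Among 6 genes of complexes that remove either mark, 3 were lower, 2 higher and 1 (ASXL3) not SDE. All 6 had a mean of at least 1 CPM, so the same background shares hold. The H3K27 demethylases KDM6A and KDM6B were the ones that rose, with LFCs of 1.19 (SE 0.071) and 1.04 (SE 0.038), while BAP1, an H2A deubiquitinase, and its partners ASXL1 and ASXL2 had LFCs of -0.57 (SE 0.036), -0.81 (SE 0.045) and -0.18.

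Of 16 tested among 17 other DNA methylation and demethylation factors, 11 were lower, 3 higher and 2 (among them MBD1) not SDE, with a median LFC of -0.29. All 16 had a mean of at least 1 CPM, where 45.3% of genes were lower and 34.8% higher. The higher ones included TET2 and TET3, the paralogues of TET1, with LFCs of 0.39 and 0.11, and ZBTB4 with one of 0.29. With library size alone 8 were lower and 5 higher. CDCA7, the partner of HELLS, fell by 2.66 on the log2 scale (SE 0.036), from a median of 120.1 to 18.8 CPM. Its paralogue CDCA7L had an LFC of -1.01 (SE 0.045). MBD4, a glycosylase that repairs deaminated methylcytosine, had an LFC of -0.92 (SE 0.046). The abundant genes MBD3 and MBD1 had LFCs of -0.29 (SE 0.034) and 0.03 (SE 0.034, adjusted p 0.40, edgeR QL). CDCA7 was the only one lower by more than 2-fold by glmTreat.

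**Figure D5:**
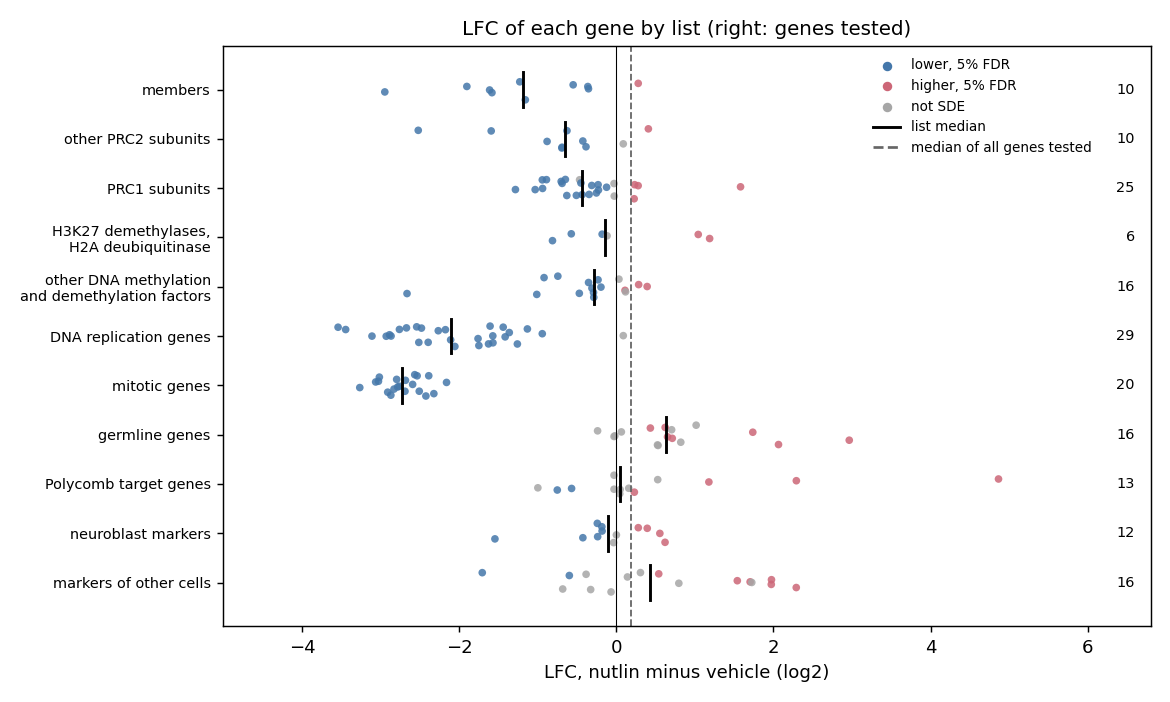
LFC (log2, nutlin minus vehicle) of every tested gene of each list, coloured by its call in the edgeR QL test at 5% FDR, with a bar at the list median and a dashed line at the median of all 27697 genes (0.19). Members spread from -2.95 to 0.28, between the replication and mitotic genes on the left and the other chromatin lists nearer to 0.

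Most members fell, and so did most listed genes of the cell cycle. Of 29 DNA replication genes 28 were lower (LIG1, a DNA ligase, was not SDE, LFC 0.09) and 27 by more than 2-fold, with a median LFC of -2.11. All 20 mitotic genes were lower by more than 2-fold, with a median LFC of -2.72. Every gene of both lists had a mean of at least 1 CPM, where 45.3% of genes were lower and 6.27% by more than 2-fold. GINS2, MCM6 and MCM10 of the replication helicase machinery had LFCs of -3.54 (SE 0.064), -3.44 (SE 0.049) and -3.11 (SE 0.061). PCNA, the sliding clamp that also binds DNMT1, and MCM7 had LFCs of -0.94 (SE 0.053) and -1.44 (SE 0.040). For mitosis, CENPA, CCNB1 and KIF11 had LFCs of -3.26 (SE 0.077), -3.06 (SE 0.062) and -3.03 (SE 0.072), and TOP2A, the most abundant with CCNB1, had one of -2.51 (SE 0.061). The summed TPM of the mitotic list was 2132 to 2721 in vehicle and 301 to 421 in nutlin. In bulk RNA, fewer cells with a transcript and less transcript per cell cannot be told apart, and the part of the cell cycle in the members' changes was not tested.

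Genes often silenced by these systems were followed as 2 lists. Of 20 germline genes with promoters methylated in somatic cells, 16 were tested, 7 were higher and 9 not SDE in the edgeR QL test, and the median LFC was 0.64. None was lower by edgeR QL, and 0 were lower at an unadjusted p under 0.05 or with DESeq2. All were scarce, and 3 reached a mean of 1 CPM over all 20 samples. That mean includes the nutlin samples, so the cut favours genes that rose. Vehicle medians of TEX14 and SYCP1 lay under 1 CPM. Of the 13 under 1 CPM 4 were higher (30.8%) and 0 lower, where 29.1% of the 12529 genes under 1 CPM were higher and 3.71% lower. TEX14 went from a median of 0.427 to 1.89 CPM (LFC 1.74, SE 0.22), SYCP1 from 0.883 to 1.61 (LFC 0.71, SE 0.17) and CTCFL from 1.34 to 1.67 (LFC 0.43, SE 0.15). Summed over the list, TPM was 4.81 to 7.88 in vehicle and 6.99 to 12.5 in nutlin, so the groups overlapped. Of 20 developmental genes known as Polycomb targets, 13 were tested. They had a median LFC of 0.05, with 4 higher (NKX2-5, PAX3, OLIG2 and NEUROG2), 2 lower and 7 not SDE. Over all genes tested, 32.3% were higher and 26.5% lower. The cardiac factor NKX2-5 had the largest change, from a median of 0.153 to 4.90 CPM (LFC 4.87, SE 0.26, adjusted p 2.6e-16, edgeR QL). It too reached a mean of 1 CPM through its nutlin samples. HAND1, already abundant in vehicle at a median of 283 CPM, had an LFC of -0.57 (SE 0.036), PAX6 one of -0.75 (SE 0.14) and NEUROG2 one of 0.23 (SE 0.086). PAX7, GATA4 and GATA6 did not pass (LFC 0.04, 0.05 and 0.16). No chromatin mark or methylation level was measured here.

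Total estimated counts were 14455477 to 19532971 per vehicle sample and 15078052 to 17442896 per nutlin sample. MDM2 and CDKN1A, p53 targets that serve to check the treatment, had LFCs of 4.51 (SE 0.070) and 5.68 (SE 0.14). Of 12 neuroblast markers 6 were lower and 4 higher, and with library size alone 2 were lower and 6 higher. All 12 had a mean of at least 1 CPM, where 45.3% of genes were lower and 34.8% higher. TH and CHGA rose (LFC 0.62 and 0.56), with CHGA at a median of 1654 CPM in vehicle. The LFCs of all 12 markers ran from -1.54 to 0.62 with a median of -0.11, so the largest change was a fall. By glmTreat, 1 marker was lower and 0 were higher by more than 2-fold. Of 18 markers of other cells (fibroblast, leukocyte, endothelial, epithelial and Schwann), 16 were tested, 6 were higher, 2 (among them LUM) lower and 8 not SDE, at a summed 8.97 to 13.5 TPM in vehicle and 16.02 to 24.4 TPM in nutlin, with CD3E at 0 in all samples. COL1A1 (LFC 1.98), CD68 (LFC 2.29) and PRRX1 (LFC 1.97) led that list. Over all genes tested, 32.3% were higher and 26.5% lower. Whether the shifts of these markers bear on the members was not tested.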

How the data were processed

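RNA-seq of 20 NGP samples (10 vehicle, 10 nutlin, grouped by their titles) was used. Per the labels and the study's methods, the authors quantified reads with kallisto 0.42.4 against Ensembl 85 transcripts of GRCh38. The deposited estimated counts are reads assigned per transcript, without normalization. The deposited TPM are those estimated counts divided by effective length and rescaled to a common total by the authors' kallisto runs. The deposited effective lengths, in bases, entered 1 alternative.

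Transcripts were matched to GENCODE 44 by identifier without version, which placed 191106 of 198968 (95.7% to 96.8% of the counts of a sample). Estimated counts were summed per gene and rounded, and 17351 mRNA and 10346 lncRNA genes, those with a count of 1 or more in both groups, were tested with edgeR 4.0.16 (R 4.3.3), using TMM scaling, glmQLFit, glmQLFTest and glmTreat against an absolute LFC of 1, with condition as the only term. Transcripts passing filterByExpr at a minimum count of 10 were tested likewise, their use with diffSpliceDGE and, added later, with limma 3.58.1 on log2 ratios with a pseudocount of 0.5. DESeq2 1.42.0 served as an alternative. TPM was not tested. All fits were tested on simulated counts. CPM are TMM-scaled throughout, and LFCs of named genes other than members passed the edgeR QL test at 5% FDR unless stated. No 2 samples held identical values.

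The members and lists were chosen with earlier results of these data known. All members, MDM2 and CDKN1A and copies named as a member plus P and a number were named. Of each other list, the 3 genes with the largest LFC past the test at a mean of at least 1 CPM and the 2 highest in TPM were named, and of the germline and Polycomb target lists every gene with at least 1 CPM. Genes outside this rule, such as LCOR, TET2, TET3 and LIG1, were named after their values were seen, to complete a small count. Promoter windows are from RefSeq (GRCh38.p14). Protein sequences were not analysed here. A few genes and 1 sequence that the rule would name are not reported here.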

Additional observations from a re-analysis of the deposited data

How the results depend on the processing

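Each member was refitted under 32 alternatives (scaling, test, filter, length offset, transcripts summed, library total, pseudogene counts, threshold, and leaving out each of the 20 libraries), and all 10 kept their direction and stayed past the test in every one. Leaving out 1 library moved LFCs little, from -2.95 to -2.91 for UHRF1, -1.61 to -1.51 for HELLS and 0.27 to 0.30 for EZH1. The count of members lower by more than 2-fold went from 6 to 4 with library size alone or with protein_coding transcripts only, SUZ12 and DNMT1 being the ones lost, and to 5, without SUZ12, with DESeq2 size factors, filterByExpr, the effective length offset, pseudogene counts added, 1% FDR, or without either of 2 libraries. Library size alone gave the smallest fall for EED (-0.16), DNMT3A (-0.17) and TET1 (-0.36) and the largest rise for EZH1 (0.47), while the median LFC of all genes was 0.37. With filterByExpr that median was 0.03. The number of member transcripts used more was 10 with limma voom in place of 6, and 9 by log2 ratios alone. TPM computed over matched transcripts only raised 14 of 20 mean levels by more than 1 SD. Replicate numbers occur in both groups for 8 pairs, and the labels do not say whether they pair the samples. The correlation of same-numbered samples' deviations averaged -0.02 (-0.10 to 0.11), and 0 of 8 pairs correlated best with their own number. No shared deviation was thus seen, which cannot show how the cultures were set up. With the replicate block over these 16 samples 9 members were lower and 1 higher, as without the block, and over all genes calls went from 6906 lower and 8086 higher to 6757 and 7519.

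DNMT3B rests on few counts in nutlin, and most germline genes lie under 1 CPM, where small changes are not detectable at this depth. Estimated counts carry the error of kallisto's division of reads, which was not measured here.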
